A study of Mus musculus with 12 samples.

Results

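The 10 genes described here encode sensors, the shared adaptor, inflammatory caspases, the pore-forming effector and a cofactor of the inflammasome and of pyroptosis, and were taken by gene symbol from the 12850 genes listed in the deposited expression table. They are *Nlrp3*, *Nlrp1b*, *Nlrc4*, *Aim2* and *Mefv* (sensors), *Pycard* (adaptor), *Casp1* and *Casp4* (caspases), *Gsdmd* (effector) and *Nek7* (cofactor), and all 10 were present. mRNA was sequenced from thioglycollate-elicited peritoneal exudate cells (PECs), which are rich in macrophages recruited by an irritant, of WT mice and of knock-in mice homozygous for *Zc3h12a* S513A, all labelled C57BL/6. *Zc3h12a* encodes Regnase-1, an RNase that degrades inflammatory mRNAs, and in S513A mice a serine that is phosphorylated and then holds 14-3-3 proteins is replaced by alanine. The mice received 2 ml of 4% thioglycollate medium, cells were collected after 3.5 days, and the cultures were stimulated with LPS at 100 ng/ml for 4 or 8 hr or left without LPS (0 hr). Each of the 6 groups (2 genotypes at 3 time points) had 2 libraries. WT mice were of the C57BL/6JJcl substrain, and the S513A allele was made with CRISPR-Cas9 in C57BL/6J eggs and is carried by every cell of the mouse. How many founder lines were used, and the age of the mice, are not given in the sources used here. Nothing states that the 2 libraries of a group came from separate mice, so that p-values measure only the spread between these libraries, which may be technical.

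Inflammasomes are cytosolic complexes that form when a sensor protein detects a microbial product or cellular damage. The sensor recruits ASC, the product of *Pycard*, which clusters caspase-1, and active caspase-1 matures IL-1β and IL-18 and cleaves gasdermin D, whose amino-terminal fragment opens pores in the plasma membrane and kills the cell by pyroptosis. In the non-canonical branch, caspase-11 (the product of mouse *Casp4*) is activated by LPS in the cytosol and cleaves gasdermin D directly. In macrophages LPS acts through TLR4 as a priming signal that raises the mRNAs of some of these components, while assembly needs a further trigger. The mRNA levels here describe transcripts, and give neither the protein levels of the components nor the activity of the complexes.

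Library depth over the listed genes was between 9525979 and 12439960 reads (median 11137241). All 10 genes passed the filter on low values, at least 1 CPM (reads scaled to a common library size) in 2 or more libraries, which left 11885 genes in the test, and none had a library at 0 reads. The lowest value was 4 reads of *Nlrp1b*, against 3 reads taken as the floor. The macrophage markers (8 of 8 listed) summed to 16800 to 27800 CPM per library. Of the neutrophil markers 5 of 12 were listed and summed to 779 to 983 CPM, of which *Mmp8* gave 329 to 725, and the defining markers *Ly6g*, *S100a9*, *Cxcr2*, *Mpo* and *Elane* were not among the listed genes. Marker sums of B (5 of 6 listed), T (2 of 7), mast (4 of 6) and mesothelial cells (4 of 6) stayed at or below 9.54 CPM in every library. The T cell sum rests on *Cd4* and *Lck*, since *Cd3e*, *Cd3d*, *Cd3g*, *Cd8a* and *Trac* were not listed. In both genotypes the eosinophil sum (2 of 5 markers listed) fell from 15.2 to 18.4 CPM at 0 hr to 3.54 to 4.48 CPM at 8 hr. Most of it was *Siglecf* (2.93 to 18.3 CPM), and *Ccr3* gave at most 0.735. The dendritic cell sum (4 of 5 listed) rose from 2.19 to 3.08 CPM to 8.11 to 10.3 CPM in both genotypes. Of this sum *Ccr7* gave 0.839 to 7.44 CPM, and each other listed marker at most 1.71. The sum of 5 resident peritoneal macrophage markers rose from between 1060 and 1240 CPM to between 2630 and 3100 CPM. Nearly all of it came from *Adgre1* (1040 to 3050 CPM), which is also on the macrophage list. Over all libraries *Timd4* ranged from 6.58 to 38.6 CPM, *Icam2* from 3.36 to 7.25, *Gata6* from 0.57 to 5.08 and *Selp* from 0.191 to 3.46. The sum therefore does not show whether these lower markers rose or fell with LPS. The part of these cells in the values below was not tested. In such bulk samples, fewer cells of a type and less RNA per cell cannot be told apart. The libraries of WT 4 hr, S513A 4 hr and S513A 8 hr differed more between replicates (SD of the replicate difference across genes 0.401, 0.287 and 0.341) than the other groups (0.162 to 0.216), along a shared direction that held 67.6% of the replicate variance. *Pycard* (2.65th percentile of all genes), *Casp4* (8.95th) and *Casp1* (14.6th) lay toward the lower end of that direction, and their values are therefore also given without these libraries.

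The genes lie on 7 chromosomes of GRCm38. *Nlrp3* (chr11:59541568-59566956, + strand) and *Nlrp1b* (chr11:71153102-71230733, - strand) share chromosome 11, *Casp1* (chr9:5298517-5307265, +) and *Casp4* (chr9:5308828-5336783, +) are neighbors with 1562 bases between them, and *Aim2* (chr1:173350879-173466040, +) and *Nek7* (chr1:138482875-138620141, -) lie on chromosome 1. *Nlrc4* (chr17:74425438-74459142, -), *Mefv* (chr16:3707218-3718097, -), *Pycard* (chr7:127989708-127993867, -) and *Gsdmd* (chr15:75862327-75867408, +) are each alone on their chromosome. *Casp1* and *Casp4* share no exonic base. *Pycard* shares 485 exonic bases with the opposite-strand gene *Gm45205* and *Nek7* 118 with the antisense gene *Gm28501*, and since reads were mapped as unstranded, reads of these overlaps cannot be told apart. *Nlrp1b* has the close paralog *Nlrp1a* and the pseudogene *Nlrp1c-ps*, and reads could have been split or lost among the 3.

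Promoters, defined as 250 bases before to 50 bases after the RefSeq transcription start on GRCm38.p6, were available for 9 of the 10 genes (not for *Gsdmd*). Those of *Nlrp3*, *Mefv* and *Casp4*, the 3 genes that rose most at 4 hr in both genotypes, and that of *Nlrp1b*, which fell most, are printed 5′ to 3′ on the strand of the gene. Capitals mark windows that match the NF-kappaB motif GGGNNNNNCC on either strand, where N is any base. The windows lie at chr11:59541319-59541618 (+) for *Nlrp3*, chr16:3718075-3718374 (-) for *Mefv*, chr9:5308599-5308898 (+) for *Casp4* and chr11:71230684-71230983 (-) for *Nlrp1b*.
Nlrp3: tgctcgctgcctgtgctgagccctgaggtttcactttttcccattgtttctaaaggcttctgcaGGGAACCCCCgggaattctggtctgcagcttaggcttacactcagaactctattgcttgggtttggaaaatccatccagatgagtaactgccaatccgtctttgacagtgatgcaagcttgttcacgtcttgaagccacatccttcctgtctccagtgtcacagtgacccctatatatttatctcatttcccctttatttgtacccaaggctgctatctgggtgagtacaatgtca
Mefv: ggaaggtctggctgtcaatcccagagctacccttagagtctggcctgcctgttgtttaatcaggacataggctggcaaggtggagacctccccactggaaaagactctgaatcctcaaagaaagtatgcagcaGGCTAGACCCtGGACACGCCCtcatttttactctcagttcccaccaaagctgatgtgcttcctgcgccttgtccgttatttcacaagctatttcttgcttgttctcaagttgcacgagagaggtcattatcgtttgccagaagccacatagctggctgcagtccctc
Casp4: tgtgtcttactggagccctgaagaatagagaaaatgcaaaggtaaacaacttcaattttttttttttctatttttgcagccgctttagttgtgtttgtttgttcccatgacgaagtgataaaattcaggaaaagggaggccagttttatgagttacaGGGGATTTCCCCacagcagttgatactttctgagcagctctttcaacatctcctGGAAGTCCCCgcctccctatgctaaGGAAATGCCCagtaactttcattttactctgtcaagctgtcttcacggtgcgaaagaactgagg
Nlrp1b: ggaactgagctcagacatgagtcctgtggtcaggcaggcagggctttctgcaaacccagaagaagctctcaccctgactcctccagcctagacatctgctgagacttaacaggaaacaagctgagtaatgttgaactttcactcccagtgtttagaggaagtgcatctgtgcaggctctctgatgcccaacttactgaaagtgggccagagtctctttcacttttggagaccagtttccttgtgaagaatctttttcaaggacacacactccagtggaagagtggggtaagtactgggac

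The *Casp4* promoter held 5 NF-kappaB windows, of which 3 overlap in a single run, and 3.16% of all 32851 promoters in the table (27025 genes) held 5 or more. The *Mefv* promoter held 2 windows and the *Nlrp3* promoter 1, as did that of *Casp1*, while 50.8% of all promoters held at least 1 and 27.4% at least 2. A second annotated *Nlrp3* start (chr11:59542436-59542735) also had 1. *Nek7*, which fell with LPS, had 3 windows (3 or more in 13.6% of promoters). No window was found for *Nlrp1b*, *Nlrc4*, *Aim2* and *Pycard*. None of the 9 promoters matched the ISRE letters GAAANNGAAA (3.44% of all promoters), the GAS letters TTCNNNGAA (8.3%) or the AP-1 letters TGANTCA (7.81%). Such matches describe letters in these windows and say nothing of binding.

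To ask how LPS changed the mRNA supply of this machinery, each LPS group was compared with 0 hr in the same genotype. At 4 hr in WT PECs, 7 of the 10 genes rose (22.6% of all genes tested did) and 2 fell (18.7%). In S513A PECs 7 rose (23.1% of all genes) and 3 fell (20.2%). The 7 that rose were *Nlrp3*, *Mefv*, *Casp4*, *Casp1*, *Gsdmd*, *Aim2* and *Nlrc4* in each genotype, those that fell were *Nlrp1b* and *Nek7*, and *Pycard* passed the threshold in S513A PECs. At 8 hr, 6 rose in WT (19.4%) and 1 fell (14.9%), and in S513A 6 rose (20.9%) and 3 fell (19%). The median log2 fold change over the 10 genes was 0.84 in WT and 0.88 in S513A at 4 hr, against 0.04 and -0.00 over all genes tested, and 1.09 and 1.27 at 8 hr, against 0.03 and -0.01. Between 4 and 8 hr, *Casp1* rose further in WT (6.73% of all genes rose) while *Nlrp3* and *Aim2* fell (7.49% fell), and in S513A *Nlrc4* rose (9.31%) while *Nlrp3* and *Aim2* fell (8.99%). These 10 genes are a chosen set, so the counts describe it and do not set it apart from other genes.

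**Figure D1:**
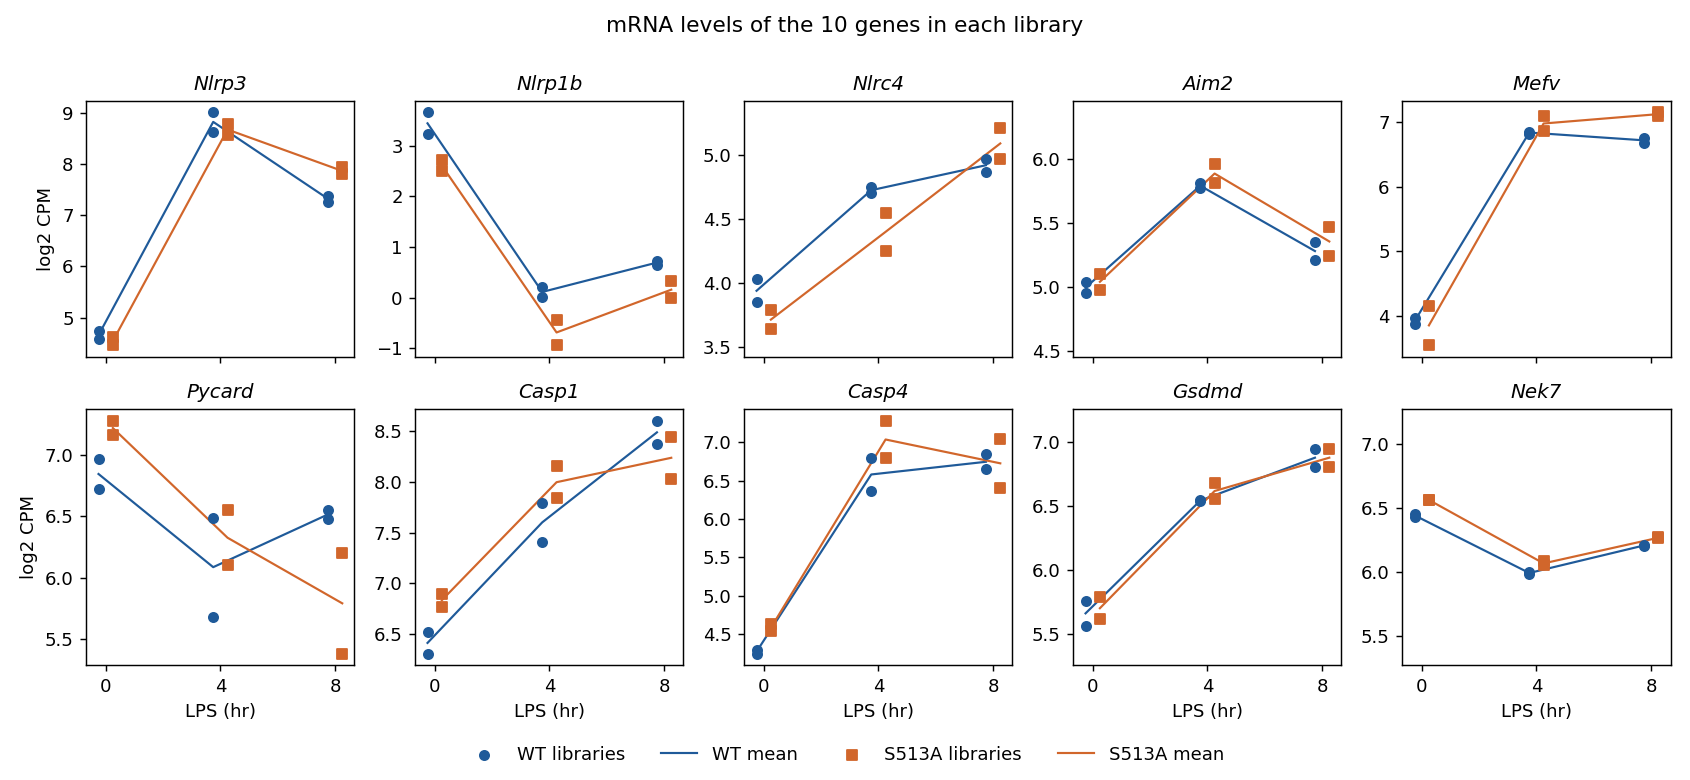
mRNA level (log2 CPM, y axis, a separate scale in each panel) of each of the 10 genes against hours of LPS (x axis). Circles are WT libraries, squares S513A libraries, and lines join the means of 2 libraries. *Nlrp3* peaked at 4 hr, *Mefv* and *Casp4* stayed high to 8 hr, and *Nlrp1b* lay near or below 1 log2 CPM after LPS. The means of *Casp1* and *Gsdmd* were highest at 8 hr. Of their rises from 4 to 8 hr, only that of *Casp1* in WT passed the threshold.

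Among the sensors, *Nlrp3*, which responds to potassium efflux and other cell damage, changed most at 4 hr. Its level in WT PECs was 4.73 and 4.58 log2 CPM before LPS, 8.64 and 9.02 after 4 hr, and 7.27 and 7.38 after 8 hr. The S513A libraries were at 4.46 and 4.62, 8.79 and 8.57, and 7.94 and 7.80 in the same order. The 3 time points did not overlap within either genotype, with the highest levels at 4 hr. The log2 fold change at 4 hr was 4.18 ± 0.14 (SE, n = 2 against 2 libraries, adjusted p = 7.42e-09 by limma), or 18.1-fold, in WT and 4.14 ± 0.14 (adjusted p = 6.47e-09), or 17.6-fold, in S513A. From 4 to 8 hr *Nlrp3* fell by 1.51 in WT (adjusted p = 0.000229) and by 0.81 in S513A (adjusted p = 0.00435) on the log2 scale, and at 8 hr it was still 6.36-fold and 10.1-fold above 0 hr.

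*Mefv* encodes pyrin, a sensor that responds to the action of certain bacterial toxins. Its WT libraries were at 3.97 and 3.87 log2 CPM before LPS, 6.85 and 6.82 after 4 hr, and 6.75 and 6.68 after 8 hr, and the S513A libraries at 3.55 and 4.16, 7.09 and 6.86, and 7.09 and 7.15. All LPS libraries lay above all 0 hr libraries, and unlike *Nlrp3* the level did not differ detectably between 4 and 8 hr (log2 difference -0.12, 95% confidence interval -0.49 to 0.26 in WT, and 0.14, -0.23 to 0.52 in S513A). The rise at 4 hr was 7.52-fold in WT (log2 2.91 ± 0.17, adjusted p = 2.86e-07) and 8.69-fold in S513A (3.12 ± 0.17, adjusted p = 1.61e-07).

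*Nlrc4*, which joins NAIP proteins bound to flagellin or type III secretion proteins, and *Aim2*, which binds cytosolic DNA, rose less. *Nlrc4* was at 3.85 and 4.03 log2 CPM in WT before LPS, 4.70 and 4.75 after 4 hr, and 4.87 and 4.97 after 8 hr, and at 3.64 and 3.79, 4.55 and 4.25, and 4.97 and 5.21 in S513A. It was therefore highest at 8 hr in each genotype, where it was 1.96-fold (WT, adjusted p = 0.000385) and 2.59-fold (S513A, adjusted p = 2.74e-05) above 0 hr. *Aim2* was at 4.95 and 5.04, 5.81 and 5.77, and 5.35 and 5.21 at the 3 times in WT, and at 4.98 and 5.10, 5.81 and 5.96, and 5.24 and 5.47 in S513A. Its rise of 1.74-fold (WT, adjusted p = 0.000297) and 1.80-fold (S513A, adjusted p = 0.000175) at 4 hr was partly lost by 8 hr, when the log2 difference from 0 hr was 0.29 ± 0.12 (adjusted p = 0.0817) and 0.32 ± 0.12 (adjusted p = 0.0519). The WT value at 8 hr became -0.04 when the dependence of each library's values on gene length and GC was taken out, a setting chosen after seeing the data. The falls of *Aim2* from 4 to 8 hr did not pass the threshold without either WT 8 hr library (adjusted p = 0.0635 and 0.14) or, in S513A, without S513A 8 hr replicate 1 (0.113) or S513A 4 hr replicate 2 (0.102). The *Nlrc4* rise from 4 to 8 hr in S513A (0.69 ± 0.14, adjusted p = 0.00967) did not pass the threshold without S513A 4 hr replicate 2 (0.53, adjusted p = 0.0903).

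The sensor gene *Nlrp1b* went the other way. At 0 hr it had 133 and 164 reads in WT and 74 and 67 in S513A, at 4 hr 11 and 12 in WT and 7 and 4 in S513A, and at 8 hr 17 and 16 in WT and 11 and 11 in S513A. On the log2 CPM scale these were 3.22 and 3.66, 0.02 and 0.20, and 0.73 and 0.65 in WT, and 2.71 and 2.50, -0.44 and -0.94, and -0.01 and 0.32 in S513A. Every LPS library was below every 0 hr library. *Nlrp1b* fell 10.1-fold at 4 hr in WT (log2 -3.33 ± 0.28, adjusted p = 4.95e-06) and 9.80-fold in S513A (-3.29 ± 0.28, adjusted p = 4.97e-06), and after LPS it rested on so few reads that its level is imprecise. The paralog *Nlrp1a* fell less in both genotypes (log2 -0.84, adjusted p = 0.0106 in WT, and -0.61, adjusted p = 0.0434 in S513A), and *Nlrp1c-ps* had 29 and 34 reads at 0 hr against 4 and 3 at 4 hr in WT.

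The adaptor gene *Pycard* was lower with LPS than at 0 hr in both genotypes, with a call in S513A. Its libraries were at 6.72 and 6.97 log2 CPM before LPS, 6.49 and 5.68 after 4 hr, and 6.48 and 6.55 after 8 hr in WT, and at 7.28 and 7.16, 6.10 and 6.55, and 5.38 and 6.20 in S513A. All LPS libraries were below the 0 hr libraries of their genotype, but the 2 libraries of WT 4 hr and of S513A 8 hr lay 0.82 apart. The log2 change at 4 hr was -0.77 ± 0.29 (adjusted p = 0.0563) in WT and -0.89 ± 0.29 (adjusted p = 0.0291) in S513A, and at 8 hr -0.33 (adjusted p = 0.399) in WT and -1.43 (adjusted p = 0.00293) in S513A. From 4 to 8 hr the change in WT was 0.43 (95% confidence interval -0.21 to 1.07). These values depended on single libraries. The WT change at 4 hr was -1.17 (adjusted p = 0.00941) without WT 4 hr replicate 1 and -0.36 (adjusted p = 0.345) without replicate 2, and the S513A change at 4 hr lost its call without S513A 4 hr replicate 1 (-0.67, adjusted p = 0.171) or without either 0 hr library. The S513A change at 8 hr kept its call without either of its 8 hr libraries (-1.01 and -1.84). With median-ratio scaling, quantile normalization, voom weights or removal of the length and GC trend, the WT change at 4 hr also passed the threshold (-0.86, -1.05, -0.76 and -0.91).

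Both inflammatory caspase genes rose. *Casp1* was at 6.31 and 6.52 log2 CPM before LPS, 7.79 and 7.41 after 4 hr, and 8.37 and 8.60 after 8 hr in WT, and at 6.77 and 6.90, 7.84 and 8.15, and 8.03 and 8.44 in S513A. In WT the 3 time points were in order without overlap, with 2.27-fold (adjusted p = 0.000348) at 4 hr and 4.20-fold (adjusted p = 7.21e-06) at 8 hr, while in S513A 4 and 8 hr overlapped and the changes from 0 hr were 2.23-fold (adjusted p = 0.000386) and 2.64-fold (adjusted p = 0.000125). The calls against 0 hr did not depend on the libraries that stood apart (log2 1.00 and 1.37 in WT without each WT 4 hr library, and 1.6 and 1.2 in S513A without each S513A 8 hr library). The further rise of WT from 4 to 8 hr (0.89 ± 0.18, adjusted p = 0.00912) did not pass the threshold without WT 4 hr replicate 2 (0.70, adjusted p = 0.0549) or WT 8 hr replicate 2 (0.77, adjusted p = 0.0891). In S513A the same comparison gave 0.24, and 0.82 (adjusted p = 0.000145) once the length and GC trend was removed.

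*Casp4* rose to a plateau. The WT libraries were at 4.30 and 4.25 log2 CPM before LPS, 6.79 and 6.37 after 4 hr, and 6.65 and 6.84 after 8 hr, and the S513A libraries at 4.54 and 4.63, 6.79 and 7.28, and 6.41 and 7.04. All LPS libraries were more than 1 log2 unit above the 0 hr libraries, and those of 4 and 8 hr overlapped in each genotype. At 4 hr the change was 4.96-fold (log2 2.31 ± 0.22, adjusted p = 1.24e-05) in WT and 5.45-fold (2.45 ± 0.22, adjusted p = 7.5e-06) in S513A, and at 8 hr 5.55-fold and 4.40-fold. Without single libraries of WT 4 hr the first value ranged from 2.1 to 2.52, and without those of S513A 4 hr the second ranged from 2.2 to 2.69.

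*Gsdmd*, the pore-forming effector, rose moderately and with little spread. The WT libraries gave 5.76 and 5.57 log2 CPM without LPS, 6.55 and 6.54 after 4 hr, and 6.81 and 6.95 after 8 hr, and the S513A libraries 5.79 and 5.62, 6.68 and 6.56, and 6.81 and 6.95. The groups of 0, 4 and 8 hr did not overlap in either genotype. The log2 change from 4 to 8 hr did not pass the threshold by limma, however (0.33, adjusted p = 0.0785 in WT, and 0.26, adjusted p = 0.129 in S513A). The change was 1.84-fold (adjusted p = 0.000115) and 1.88-fold (adjusted p = 8.74e-05) at 4 hr and 2.32-fold (adjusted p = 1.36e-05) and 2.25-fold (adjusted p = 1.64e-05) at 8 hr, in WT and S513A in that order.

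*Nek7*, a mitotic kinase that bridges NLRP3 subunits, fell slightly. Its libraries were at 6.43 and 6.45 log2 CPM before LPS, 5.98 and 6.00 after 4 hr, and 6.20 and 6.21 after 8 hr in WT, and at 6.56 and 6.56, 6.08 and 6.05, and 6.27 and 6.26 in S513A. It varied least between replicates of all 10 genes, with group SDs of at most 0.02, so that the 3 time points were apart in both genotypes. The log2 change of *Nek7* from 4 to 8 hr did not pass the threshold by limma (0.22, adjusted p = 0.131 in WT, and 0.2, adjusted p = 0.124 in S513A). At 4 hr it fell by 0.45 in WT (adjusted p = 0.00192) and by 0.50 in S513A (adjusted p = 0.000936) on the log2 scale. At 8 hr the change was -0.24 (adjusted p = 0.0596) in WT and -0.30 (adjusted p = 0.0208) in S513A, and the call in S513A did not hold without any single library of that comparison (adjusted p = 0.0755 to 0.0962), while the change itself stayed at -0.3 to -0.29.

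**Figure D2:**
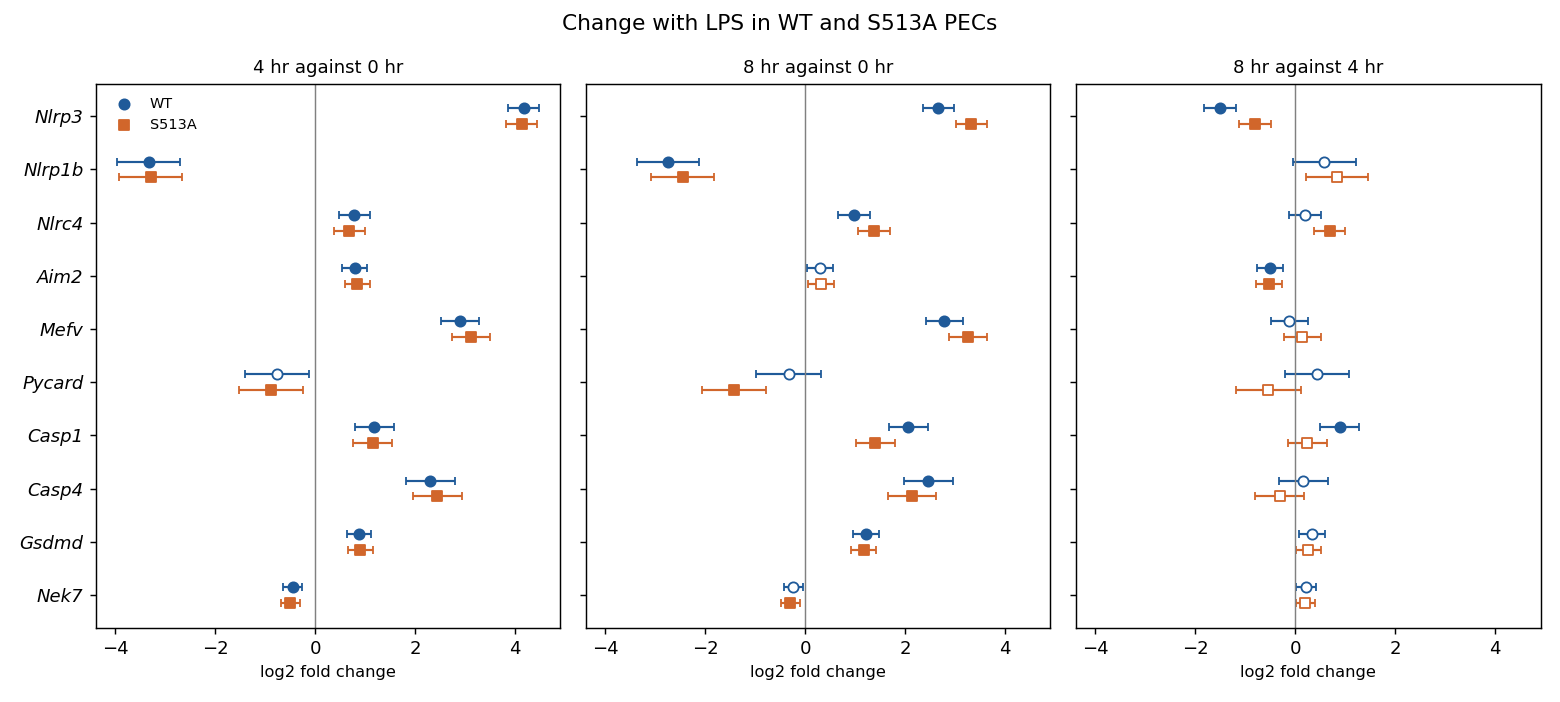
Log2 fold change with LPS (x axis) of each gene (y axis) in WT (circles) and S513A (squares) PECs, for 4 hr against 0 hr, 8 hr against 0 hr and 8 hr against 4 hr, from 2 libraries per group. Bars are 95% confidence intervals of the limma fit and filled symbols passed an adjusted p of 0.05. *Nlrp3* stood highest at 4 hr (4.18 and 4.14) and *Nlrp1b* lowest (-3.33 and -3.29) in both genotypes.

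Levels of different genes were compared per kilobase of the longest principal transcript in the GENCODE annotation (1435 bases for *Casp4* to 5258 for *Nek7*), and depend on that length. For *Pycard* it is 3800 bases, and a shorter transcript in these cells would raise its level. At 0 hr *Pycard* stood 0.91 (WT) and 0.96 (S513A) log2 units below *Casp1*, so that their order there depends on this length. *Casp1* was highest in every group, at 57.0, 130 and 240 CPM per kilobase at 0, 4 and 8 hr in WT and 76.3, 170 and 202 in S513A. *Nlrp1b* was lowest in every group, at 2.62, 0.261 and 0.391 in WT and 1.47, 0.15 and 0.269 in S513A. Before LPS the order in WT was *Casp1*, *Pycard*, *Gsdmd*, *Nek7*, *Casp4*, *Aim2*, *Nlrp3*, *Mefv*, *Nlrc4* and *Nlrp1b*, in which *Pycard* and *Gsdmd*, and *Nlrc4* and *Nlrp1b*, overlapped between libraries. LPS changed this order. At 4 hr *Nlrp3* moved from rank 7 to rank 2 (113 CPM per kilobase in WT, where its libraries overlapped those of *Casp1*, and 102 in S513A, where they overlapped those of *Casp4*), and *Casp4* to rank 3. At 8 hr *Casp1*, *Casp4* and *Gsdmd* led, *Nlrp3* was at rank 4 and *Mefv* at rank 5 in both genotypes. *Pycard* went from rank 2 to rank 6 in both, and *Nek7*, *Aim2* and *Nlrc4* were below it or overlapped with it. At 8 hr *Pycard* stood 0.5 (WT) and 1.62 (S513A) log2 units below *Mefv*, so that this rank also depends on the transcript length used.

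**Figure D3:**
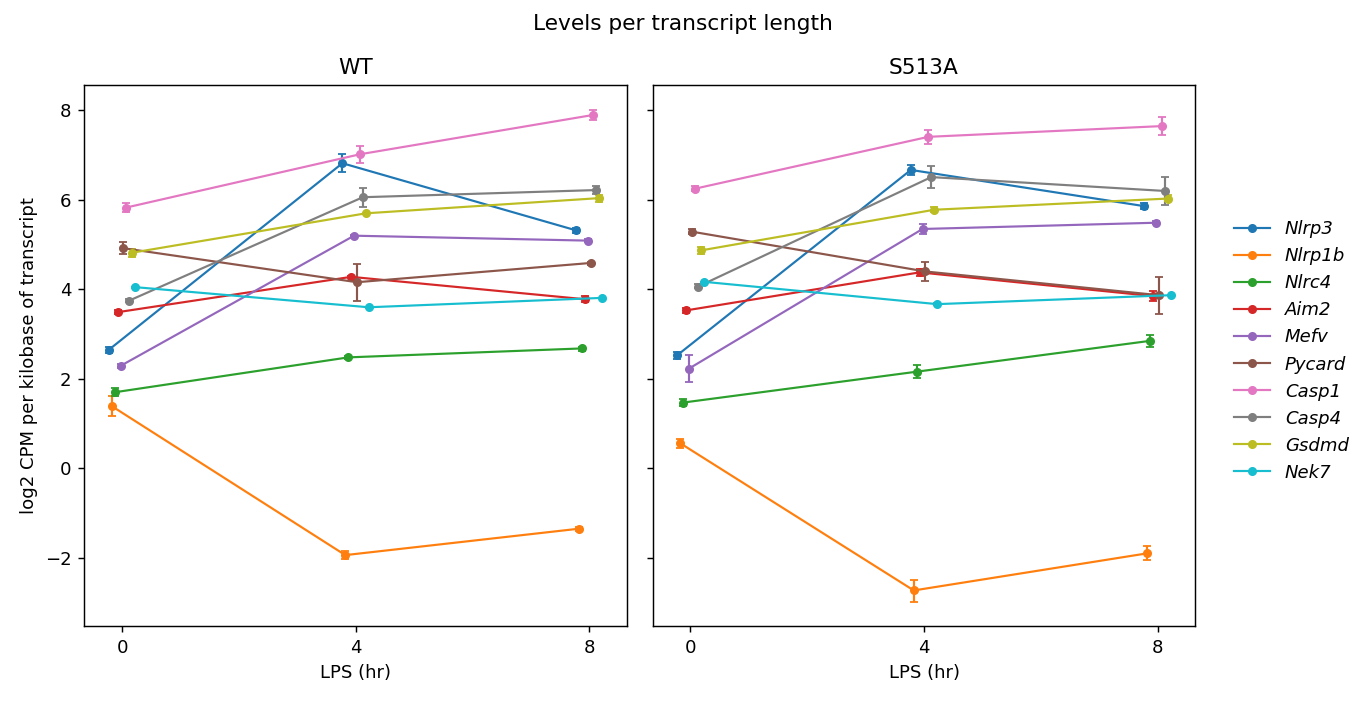
Level per kilobase of transcript (log2 CPM per kilobase, y axis) of the 10 genes against hours of LPS (x axis) in WT and S513A PECs. Points are means of 2 libraries, bars span the 2 libraries, and points are shifted sideways to be seen. With the transcript lengths used, *Casp1* was highest and *Nlrp1b* lowest in every group, and *Nlrp3* rose to rank 2 at 4 hr.

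To ask whether the S513A allele altered these mRNAs, S513A was compared with WT at each time point. None of the 10 genes passed the threshold at 0 hr (0.0337% of all genes tested did), 4 hr (0.0168%) or 8 hr (0.0337%), or averaged over the times (0.0673%). The smallest adjusted p among them was 0.586, 0.622, 0.395 and 0.314, and 2, 2, 3 and 1 of the 10 had an unadjusted p below 0.05 by limma, as did 7.98%, 7.01%, 12.5% and 6.71% of all genes tested. Fitted with voom weights, limma also called 0 in each comparison. The same was found for the difference between genotypes in the LPS change at 4 and at 8 hr (0 of 10 genes, 0% of all genes in both), where 0 and 3 genes had an unadjusted p below 0.05 (1.21% and 20.2% of all genes). Since no gene was called in these interactions, LPS changes that passed the threshold in a single genotype, such as those of *Pycard* at 8 hr, were not shown to differ between genotypes.

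The intervals set what the comparison could show. For *Gsdmd*, *Aim2* and *Nek7* the 95% confidence intervals of the S513A minus WT log2 difference lay within -0.26 and 0.36 at every time point. *Gsdmd* differed by 0.04, 0.07 and -0.00 at 0, 4 and 8 hr, *Nek7* by 0.12, 0.07 and 0.06, and *Aim2* by 0.04, 0.10 and 0.07. Intervals were wider for *Casp4* (-0.18 to 0.80 at 0 hr), *Pycard* (-0.27 to 1.01 at 0 hr and -1.36 to -0.08 at 8 hr) and *Nlrp1b* (-1.46 to -0.21 at 0 hr).

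*Nlrp1b* had the largest difference averaged over the times. Both S513A libraries were below both WT libraries at 0, 4 and 8 hr, with log2 differences of -0.83, -0.80 and -0.54, and the mean was -0.72 ± 0.16 (unadjusted p = 0.00111, adjusted p = 0.314). It failed the correction over all genes in this and in all alternative settings for the mean (adjusted p 0.132 to 0.851). At 0 hr, where it rested on 67 to 164 reads, it was called with a fit of only the 4 libraries compared (adjusted p = 0.0467), as was *Casp1* (0.42, adjusted p = 0.0454). For *Nlrp1a* the mean difference was 0.03. *Nlrp1c-ps* was lower in S513A at 0, 4 and 8 hr (log2 differences -0.96, -0.17 and -2.03), without a call. At 0 hr it had 14 and 13 reads in S513A against 29 and 34 in WT. After LPS it had at most 5 reads per library, and 0 in S513A 8 hr replicate 2.

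*Nlrp3* at 8 hr was higher in both S513A libraries (7.94 and 7.80) than in both WT libraries (7.27 and 7.38), a log2 difference of 0.55 ± 0.14 with an unadjusted p of 0.00293 that failed the correction (adjusted p = 0.395), while at 0 and 4 hr the groups overlapped. *Mefv* at 8 hr differed by 0.40 in the same direction (95% confidence interval 0.02 to 0.78, adjusted p = 0.395). *Pycard* was higher in S513A at 0 hr (0.37) and lower at 8 hr (-0.72), in each case without overlap and with adjusted p of 0.639 and 0.395, and the difference of its LPS change at 8 hr was -1.09 (95% confidence interval -2.0 to -0.18, adjusted p = 0.206). Without S513A 8 hr replicate 2 this interaction was -1.50 (adjusted p = 0.0438), and the lowest value over left-out libraries in size was -0.68. *Casp1* was higher in S513A at 0 hr (0.42), a difference that was 0.02 after removal of the length and GC trend. The sign of small differences was not firm, since 24 of the 60 gene and comparison pairs that involve genotype took the other sign in at least 1 alternative, 23 of them below 0.26 in size and the other being the *Casp1* interaction at 8 hr (-0.67), which changed sign with removal of the length and GC trend.

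**Figure D4:**
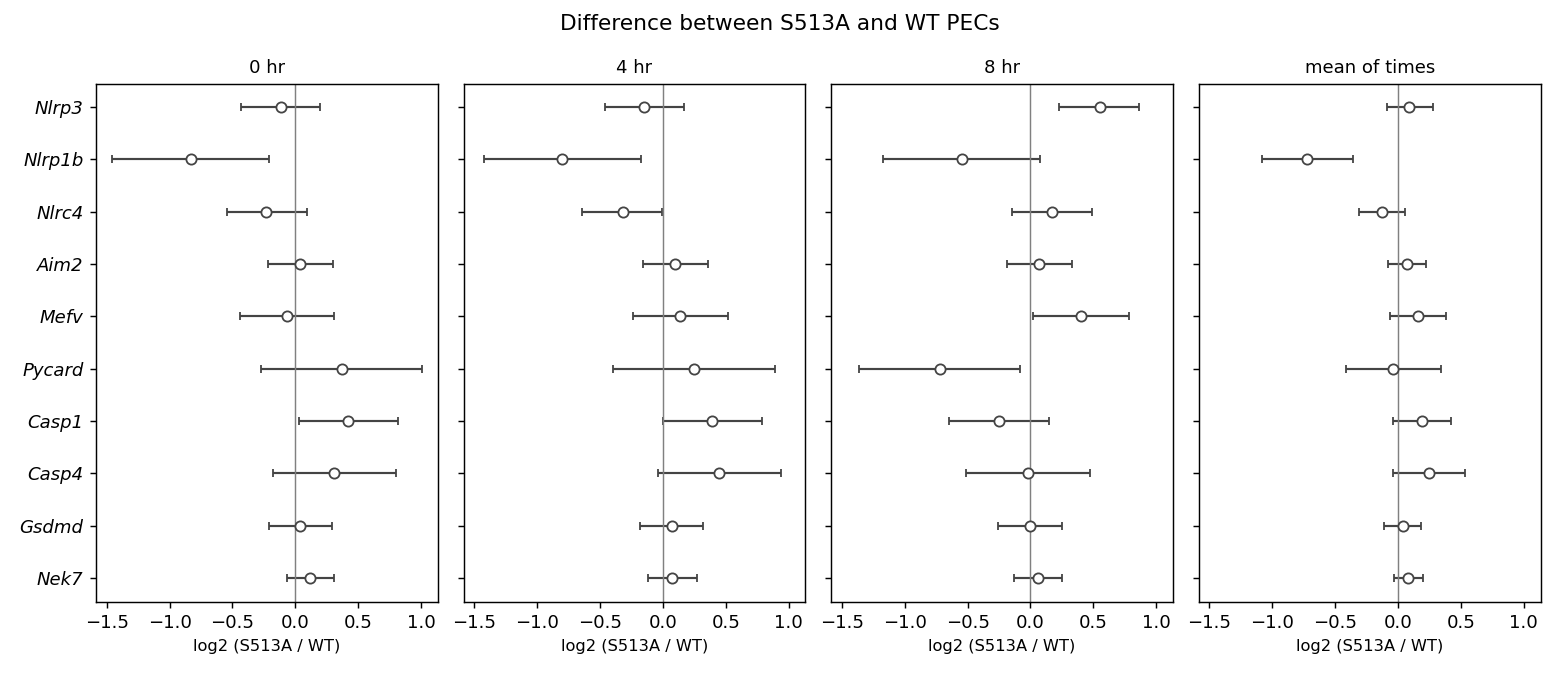
Log2 difference between S513A and WT PECs (x axis) of each gene (y axis) at each time and averaged over the times, from 2 libraries per group, with 95% confidence intervals of the limma fit. Open circles did not pass an adjusted p of 0.05, which holds for all 10 genes in the 4 panels. *Nlrp1b* was lower at each time (-0.83, -0.80 and -0.54).

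Other genes of the pathway were examined in 7 lists of 81 symbols in all, older names included, of which 63 were tested. At 4 hr 22 rose and 12 fell in WT, with a median log2 fold change of 0.24, and 23 rose and 12 fell in S513A, also with 0.24. These were 34.9% and 36.5% of the 63 that rose, against 22.6% and 23.1% of all genes, and 19% that fell in each genotype, against 18.7% and 20.2%. Among 8 other sensors and receptors 2 rose and 5 fell in WT, and 2 rose and 3 fell in S513A. *Zbp1*, a sensor of Z-form nucleic acids, rose in both (log2 3.35 and 3.39), and *Nlrp10* fell in both (-2.13 and -1.97), from 30 to 39 reads per library at 0 hr to 4 to 8 at 4 hr. *Nlrp1c-ps* fell in WT (-2.71, adjusted p = 0.0112, but 0.0735 without WT 0 hr replicate 2), and its S513A change of -1.92 did not pass the threshold (adjusted p = 0.0502), though it did in 10 of 22 alternatives.

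All 5 tested genes of the list of IL-1 and IL-18 cytokines and their antagonists rose in both genotypes. The list holds *Il1b* and *Il18*, whose products caspase-1 cleaves, *Il1a*, which is not a classical caspase-1 substrate, and the antagonist genes *Il1rn* and *Il18bp*. *Il1b* was at 3.06 and 2.24 log2 CPM at 0 hr and 11.08 and 10.51 at 4 hr in WT, and at 2.31 and 2.79 and 10.84 and 11.20 in S513A, changes of 8.15 and 8.47. *Il1a* rose by 5.07 and 5.05 and *Il18* by 2.96 and 3.17, on the log2 scale. Thus *Il1b* rose by about 4 log2 units more than *Nlrp3*, and *Il18* was close to *Mefv*. The list named for cytosolic LPS delivery has 8 genes, of which 4 encode guanylate-binding proteins that open the way of LPS to caspase-11. The others are *Cd14*, *Hmgb1*, *Ripk3* and *Ifi204*, so that the list is broader than its name. Of the 8 genes 6 rose in each genotype, led by *Gbp5* (8.40 and 7.68), *Gbp3* (4.74 and 4.87) and *Gbp2* (3.85 and 3.66). *Gbp5*, which has been linked to NLRP3 assembly, was also the only gene of these lists called between genotypes. It was higher in S513A at 0 hr (2.18 and 2.14 against 0.88 and 1.08 log2 CPM, difference 1.17 ± 0.13, adjusted p = 0.0168) and averaged over the times (0.73 ± 0.07, adjusted p = 0.00294). At 0 hr it rested on 26 to 52 reads per library, and the call at 0 hr did not hold without any single one of the 4 libraries compared (adjusted p = 0.139, 0.107, 0.173 and 0.089) or with voom weights (0.528), while the difference stayed between 1.08 and 1.27. The call averaged over the times held in every alternative (adjusted p = 0.000736 to 0.0498).

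Among 6 other caspases, gasdermins and membrane rupture genes, *Casp6* fell (-0.81 and -0.91). The fall of *Casp6* in WT had no call when WT 0 hr replicate 2 (adjusted p = 0.0518) or WT 4 hr replicate 2 (0.0588) was left out. Of 10 genes for ion flux, lysosome and redox inputs to NLRP3, the chloride channel gene *Clic4* rose (2.06 and 2.14), the cation channel gene *Trpm2* fell (-1.37 and -0.86) and *P2rx4*, an ATP-gated channel, fell slightly (-0.32 and -0.43). The *Trpm2* call in S513A was lost without S513A 0 hr replicate 1 (adjusted p = 0.0668) or S513A 4 hr replicate 2 (0.0528), and that of *P2rx4* was lost in 14 of 24 alternatives in WT and in 3 of 24 in S513A. Of 20 genes listed as regulators of sensor assembly, which include the transcription factor genes *Irf1*, *Irf2* and *Irf8*, 7 rose (35%) and 3 fell (15%) in each genotype. Of all genes tested 22.6% rose and 18.7% fell in WT, and 23.1% and 20.2% in S513A. *Irf1* (2.69 and 2.74), a transcription factor of interferon responses, and *Tnfaip3* (2.16 and 2.19), which encodes the ubiquitin-editing enzyme A20, were among those of the list that rose. The phosphatase gene *Ptpn22* (-2.12 and -2.43) was among those that fell. Of 6 genes for membrane repair none passed the threshold in WT by limma and 1 did in S513A.

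**Figure D5:**
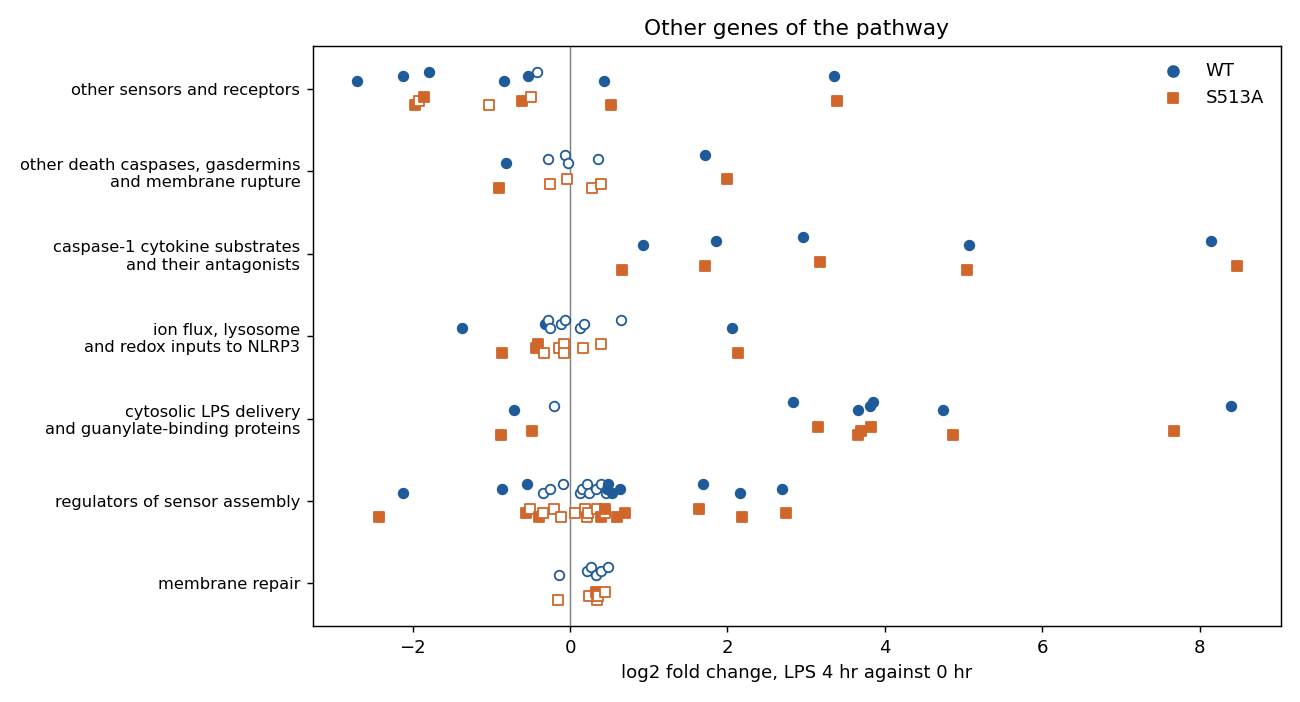
Log2 fold change at 4 hr against 0 hr (x axis) of the 63 tested genes in 7 pathway lists (y axis) in WT (circles) and S513A (squares) PECs, from 2 libraries per group. Filled symbols passed an adjusted p of 0.05. *Gbp5* and *Il1b* lie near or above 8 log2 units.

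As a description of shared patterns, the tested genes most like each member over the 12 libraries were sought by Pearson correlation of log2 CPM among 8327 genes with a mean of at least 3 log2 CPM. The libraries share 6 groups, so that any gene with the same course over LPS scores high. *Nlrp3* was most like *Slc16a10* and *Gas7* (r = 0.999 for each) and *Mefv* most like *Src* and *Pstpip2* (0.997). *Casp1* was most like the immunoproteasome gene *Psmb9* and the proteasome activator gene *Psme1* (0.994), *Gsdmd* most like *Zbp1* (0.994), and *Casp4* most like *Snx10* and *Pnp* (0.996). *Nlrc4* was most like *Slc20a1* (0.984) and *Zmynd15* (0.979), *Aim2* most like *Ipo7* (0.992) and *B3gnt2* (0.986), and *Nlrp1b* most like *Hip1* and *Vegfa* (0.985). The 2 other genes without a rise were most like *Dctpp1* (0.99) and *Rgs10* (0.987) for *Pycard* and *Pdp1* (0.986) and *Il7r* (0.983) for *Nek7*.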

How the data were processed

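RNA-seq was performed on thioglycollate-elicited PECs of WT and S513A mice, 12 libraries in 6 groups of 2. Per the labels, reads were mapped on mm10 with HISAT2 (paired end, unstranded in the study's methods) and counted with featureCounts 1.6.3. The authors deposited log2 CPM values, the log2 of the reads plus 0.5 scaled to an effective library size, and the steps of the low values gave back whole reads for every gene (largest departure 0.00103 read). The program behind this normalization, the annotation and the strand setting of the counting step are not given in the sources used here. Genes were matched by symbol.

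The deposited log2 values were tested with limma 3.58.1 in R 4.3.3 (a mean per group over all 12 libraries, empirical Bayes prior following the mean), on the 11885 genes that reached 1 CPM in 2 or more libraries. Tests were two-sided, adjusted by Benjamini-Hochberg over all genes tested in each comparison, with a threshold of 0.05. Fold changes are on the log2 scale with 0.5 read added, and intervals on them cover the spread between libraries. The median standard error was 0.18. Alternatives were other filters, a further pseudocount of 1 CPM, median-ratio and quantile scaling, other priors, 2 kinds of replicate block, a fit of only the libraries compared, voom weights, each library left out, and, chosen after seeing the data, removal of a length and GC trend. The genes, the pathway lists and the marker lists were chosen with earlier results of these data known. Of other pathway genes, the up to 3 called genes per list with the largest absolute change at 4 hr in WT were named; for likeness, the 2 genes with the highest correlation. Some genes that this rule names are not reported here. *Nlrp1a*, and *Gbp5* and *Nlrp1c-ps* in their comparisons between genotypes, were described after their values were seen. Promoters and positions came from RefSeq (GRCm38.p6) and GENCODE (GRCm38). The fit was tested on simulated data. Tables and plots were made with Python 3.11.15, pandas 2.3.3 and matplotlib 3.10.9. A point mutation cannot be read from counts, so these data do not check the genotype labels.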

Additional observations from a re-analysis of the deposited data

How the results depend on the processing

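The counts of the 10 genes called against 0 hr stayed within 1.5 times the reported count under every alternative, with 9 to 10 in WT at 4 hr, 7 to 8 in WT at 8 hr, 9 to 10 in S513A at 4 hr and 8 to 10 in S513A at 8 hr as each library was left out. Between 4 and 8 hr the counts were less firm. They were 1 to 3 in WT as libraries were left out (1 without WT 8 hr replicate 2), and in S513A 1 to 4 (1 without S513A 4 hr replicate 2), 1 with only the libraries compared and 6 with the length and GC trend removed. The count between genotypes at 0 hr was 2 with only the libraries compared, and the count of the interaction at 8 hr ranged from 0 to 1 (1, *Pycard*, without S513A 8 hr replicate 2). The other 4 comparisons that involve genotype gave 0 in every left-out fit. The cause of these changes was not tested.

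Signs changed for small differences that had no call. *Aim2* at 8 hr in WT became -0.04 with the length and GC trend removed. For *Pycard* the difference between genotypes averaged over the times, -0.04, ranged from -0.17 to 0.1 as libraries were left out, with 0.1 without WT 4 hr replicate 1, 0.01 without WT 0 hr replicate 2, 0.04 without S513A 4 hr replicate 1 and 0.1 without S513A 8 hr replicate 1. *Casp4* from 4 to 8 hr ranged from -0.05 (without WT 4 hr replicate 2) to 0.37 in WT and from -0.62 to 0.01 (without S513A 8 hr replicate 1) in S513A. *Nek7* at 4 hr in WT lost its call with only the libraries compared (adjusted p = 0.0648), and at 8 hr in WT it passed the threshold with quantile normalization (0.00341), median-ratio scaling (0.017) and others.

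Replicate numbers were not taken to pair the libraries, since the deviations of same-numbered libraries correlated over 0.1 in 6 of 15 pairs of groups (range -0.75 to 0.76), and in 2 of 6 pairs within a genotype (-0.36 to 0.76). With a replicate block, the counts of called genes in the 12 comparisons stayed within 1.5 times those reported, and with a block within genotype *Pycard* was called at 4 hr in WT (-0.77, adjusted p = 0.0459) and *Aim2* at 8 hr in S513A (0.32, adjusted p = 0.0466). At this depth *Nlrp1b* after LPS rested on 4 to 17 reads, the fewest of the 10, and *Pycard* had the largest standard error (0.29).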
